A study of Danio rerio with 12 samples.

Results

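The 223 genes described here flank foxm1 on zebrafish chromosome 4. They are the genes whose lowest coordinate lies within 5 megabases of that of foxm1 in the deposited tables, which list 25281 genes on the GRCz11 genome. The window held 228 such genes, of which foxm1 itself, ptprz1b, usp18, foxp2 and lmod2b were left out. foxm1 (ENSDARG00000003200) runs from 5807964 to 5831522 on the minus strand of chromosome 4, and the starts of its flanking genes run from 818928 to 10721795. Throughout, the start of a gene means its lowest coordinate, whichever strand it is on, and distances are between such starts. On the side of lower coordinates lay 128 of them and on the side of higher coordinates 95. The rule used position and the names of the genes left out, and no expression value entered it, but it was set with earlier results of these data known. The question was how their expression in foxm1 mutant hearts compared with that in WT hearts, beside the rest of the genome.

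Genes that sit close together on a chromosome are inherited together, because recombination rarely separates them. A mutation made with the chemical mutagen ENU therefore tends to carry with it, into homozygous fish, the nearby sequence variants of the chromosome on which it arose. Such variants can alter the expression or the splicing of neighbouring genes, and the differences they cause are found in cis, near the mutated gene, whether or not that gene regulates its neighbours.

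The study sequenced RNA from pooled ventricles of adult zebrafish after amputation of the ventricle tip, to find genes needed for cardiomyocyte division during regeneration. Homozygous foxm1 mutant hearts at 3 days post-amputation (dpa) and WT (AB*) hearts at 3 dpa had 3 libraries each, from experiments 2, 3 and 4. The labels write the genotype of the mutant libraries as sa10708/sa10708 in experiment 2, sa10708/sa10709 in experiment 3 and sa10708/sa10710 in experiment 4, whereas the paper names sa10708 alone, an ENU allele from the Sanger mutagenesis project. Experiment 1 held 1 library each of dusp6 pt30a/pt30a mutant and WT (AB*) hearts at 3 dpa and of dusp6 pt30a/pt30a mutant and WT (AB*) hearts without injury. A condition pooled at least 8 hearts from fish of 6 to 18 months per the paper, and the labels put the upper age at 1 year. Neither source says whether WT fish were siblings of the mutants. The loss of foxm1 function and the variation linked to it were carried by the same fish and cannot be told apart in these libraries. The spread behind each p-value is that between pools of hearts, not between single fish.

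Reads assigned to genes numbered 17978098 to 21245883 in the foxm1 mutant libraries and 17654534 to 18017820 in the WT libraries beside them, and 54229254 to 67236702 in experiment 1. WT replicates 2 and 3 stood apart from WT replicate 4. fkbp5, a glucocorticoid-induced gene on another chromosome, had 111, 187 and 175 counts per 1000000 reads (CPM) in foxm1 mutant replicates 2, 3 and 4, against 1189, 1529 and 116 CPM in WT replicates 2, 3 and 4. Summed levels of 4 cardiomyocyte markers were 27300 to 31700 transcripts per 1000000 (TPM) in foxm1 mutant libraries and 28100 to 30900 TPM in WT libraries. The 2 neutrophil markers mpx and lyz summed to 31.9 to 170 TPM in foxm1 mutant libraries and 14.7 to 21.5 TPM in WT libraries. The sums did not overlap, but taken singly only 1 of the 2 markers had the genotypes without overlap in CPM. Their part in the results below was not tested. Fewer cells of a type and less RNA per cell cannot be told apart in these samples. The transcript of foxm1 was present in the mutants, at 12.7, 14.6 and 12.5 CPM, against 10.4, 10.3 and 12.2 CPM in WT libraries (log2 fold change 0.27 ± 0.14 SE, adjusted p = 0.954 by edgeR).

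Of the 223 flanking genes, 179 had enough reads to be tested among 17618 genes. The other 44 had at most 128 reads over the 6 libraries, and 3 of them had none. The flanking genes were expressed at ordinary levels, with a median of 6.44 TPM against 6.4 TPM over all genes tested. A gene was called where its Benjamini-Hochberg adjusted p did not exceed 0.05 and its log2 fold change was 0.59 or more in either direction. By edgeR's quasi-likelihood test 0 flanking genes were called, where 0.0114% of all genes were. The lowest adjusted p of a flanking gene was 0.3615. At an unadjusted p of at most 0.05 there were 25 flanking genes, or 14%, where 5.64% of all genes tested passed. DESeq2 and edgeR's likelihood ratio test each called pex26, SNAP91 (1 of many) and mapk12b, or 3 flanking genes, where they called 0.664% and 0.698% of all genes. Of these, SNAP91 (1 of many) had enough reads to be tested only through the foxm1 mutant libraries, where it was high.

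The libraries were also compared without a test, by counting the genes whose 3 foxm1 mutant libraries all lay above or all lay below the 3 WT libraries in CPM. The genotypes were apart in this sense for 34 of 179 flanking genes, or 19%, against 9.23% of all genes tested. Of the 34, 19 were higher in foxm1 mutant libraries and 15 were lower, where 4.85% of all genes tested were apart and higher and 4.38% apart and lower. The median size of the log2 fold change was 0.211 over the flanking genes and 0.133 over all genes tested. The median of the signed log2 fold change was 0.020, so the flanking genes differed in both directions and did not move together. On each of the other 24 chromosomes the share of genes apart lay between 6.74% and 11.4%, and the median size of the log2 fold change between 0.119 and 0.167.

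The shares were highest near foxm1. Within 1 megabase of the foxm1 start, the genotypes were apart for 14 of 41 genes tested, or 34.1%, of which 10 were higher in foxm1 mutants and 4 were lower. The share was 23.8% of 21 genes at 1 to 2 megabases and 23.1% of 26 genes at 2 to 3 megabases. It was 9.43% of 53 genes at 3 to 4 megabases and 10.5% of 38 genes at 4 to 5 megabases. Both lay within the range of the other chromosomes, which is over whole chromosomes of 482 to 1007 genes tested. That range does not show how far shares of so few genes scatter. The median size of the log2 fold change was 0.303, 0.244, 0.258, 0.149 and 0.133 in these 5 steps away from foxm1. Across the 179 genes, which share the same 6 libraries, the size of the log2 fold change had a Spearman correlation of -0.22 with distance and of -0.32 with expression level. Distance itself had little relation to level, with a correlation of 0.102. Both sides of foxm1 were pooled in these shares. Within 1 megabase, 11 of 28 genes were apart on the side of lower coordinates and 3 of 13 on the side of higher coordinates. Over the whole window the shares were 22.7% of 97 genes and 14.6% of 82 genes, with median sizes of the log2 fold change of 0.244 and 0.149. The difference between the sides was not tested.

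**Figure D1:**
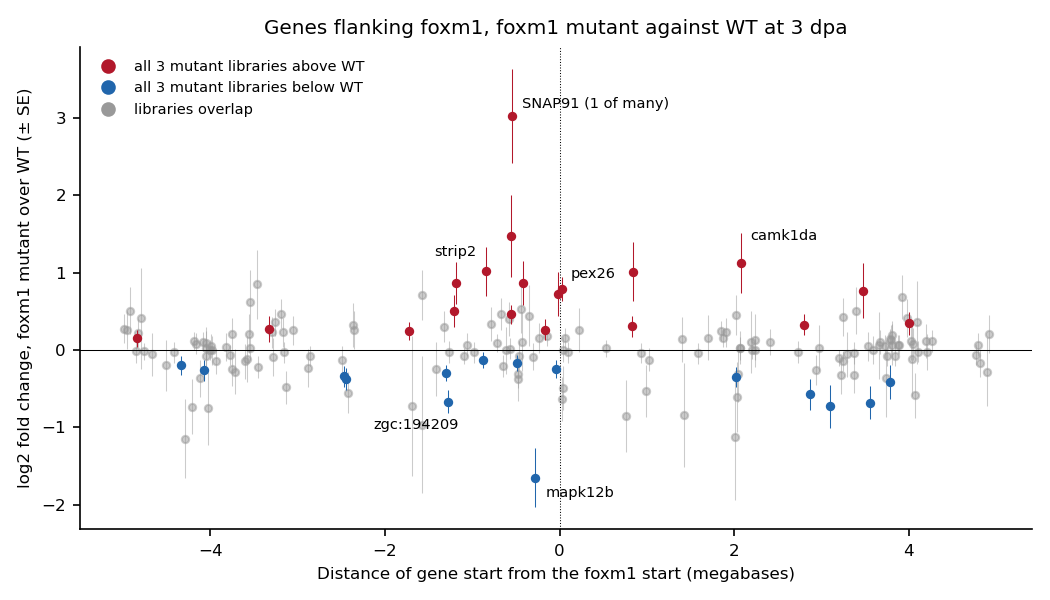
Each point is 1 of the 179 flanking genes tested, placed by the distance of its start from the foxm1 start in megabases and by its log2 fold change in foxm1 mutant over WT hearts at 3 dpa, with bars of 1 SE. Red points have all 3 mutant libraries above WT (19 genes), blue points have all 3 below (15 genes), and grey points overlap.

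Farther out on chromosome 4, 12.9% of 116 genes were apart at 5 to 10 megabases and 13.1% of 130 genes at 10 to 20 megabases. Both shares lay above the 6.74% to 11.4% of the other chromosomes, at ordinary median levels of 16.9 and 12.1 CPM. The median sizes of the log2 fold change there, 0.112 and 0.147, did not lie above the range of the other chromosomes. Beyond 20 megabases, 15.5% of 560 genes were apart, with a median size of the log2 fold change of 0.277, close to the value next to foxm1. The genes out there were expressed at a median of 2.19 CPM, against 12.3 CPM for the genes within 1 megabase of foxm1 and 11.3 CPM for all genes tested. Their single values were also less precise, with a median SE of 0.312 against 0.196 within 1 megabase. Over all genes tested at a mean under 5 CPM, with a median of 1.88 CPM and a median SE of 0.334, 10.6% were apart. Their median size of the log2 fold change was 0.242. What set the genes beyond 20 megabases above these shares was not tested. As a second comparison, 166 genes tested within 5 megabases of dusp6, which carries no labelled mutation in these fish, were apart in 12%, with a median size of 0.153. That share, too, lay above the range of the other chromosomes, which was taken over whole chromosomes and not over windows of such size.

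**Figure D2:**
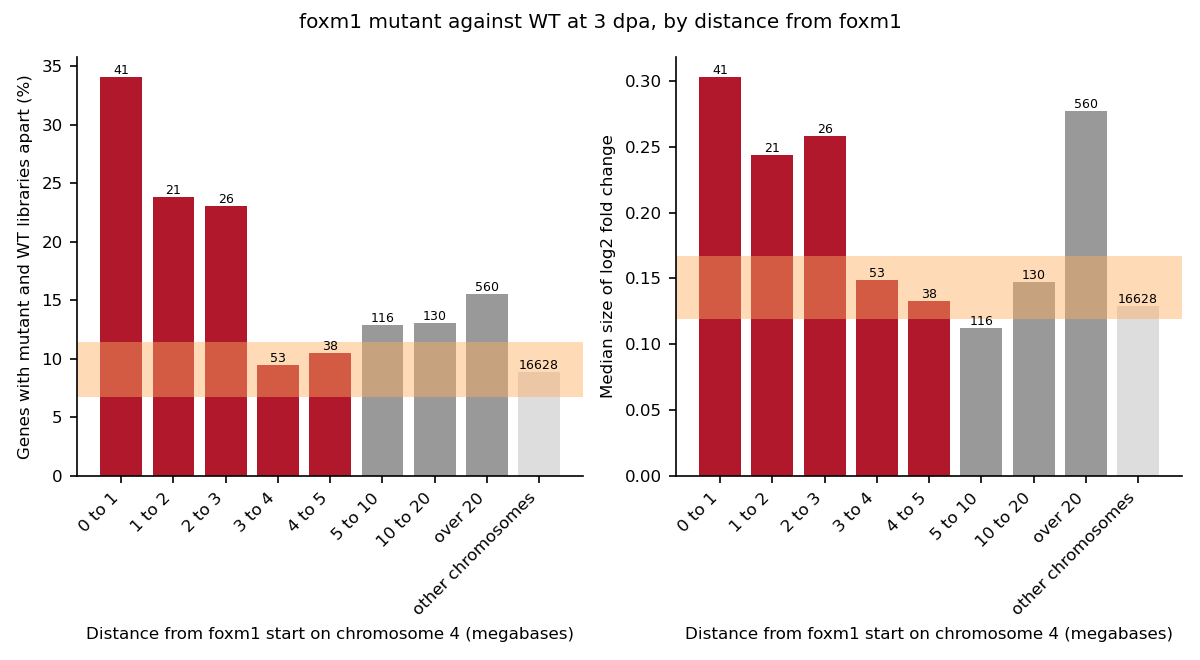
The left plot gives the percentage of genes whose foxm1 mutant and WT libraries were apart and the right plot the median size of the log2 fold change, by distance from the foxm1 start on chromosome 4 in megabases. The orange band spans the other 24 chromosomes, each taken whole (6.74% to 11.4% and 0.119 to 0.167), and does not show the scatter of smaller sets. The number over each bar counts genes tested, and the red bars are the flanking genes.

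The share of genes apart near foxm1 was above that of all genes at each expression level, in small counts. At a mean under 5 CPM, 6 of 12 genes within 1 megabase were apart, against 10.6% of all genes tested at that level. At 5 to 20 CPM the genotypes were apart for 4 of 15 such genes, against 9.36% of all, and above 20 CPM for 4 of 14, against 7.83% of all. Genes that overlap a neighbour or share reads with a copy elsewhere can pass reads to each other, so the count was repeated without them, a choice made after the data were seen. Of the 138 flanking genes with no overlapping gene and at least 95% uniquely mapped reads, 28 were apart, or 20.3%, against 8.77% of the 12920 genes tested that passed the same filter. Within 1 megabase these were 10 of 25. The direction of the differences varied with expression level. Under 5 CPM, 9 of 10 flanking genes that were apart were higher in foxm1 mutants, and above 20 CPM 10 of 12 were lower. Of these 9, SNAP91 (1 of many), camk1da, srgap1b and gpr85 would not have passed the filter on low counts on their WT libraries alone. Their direction is therefore description only, and srgap1b and gpr85 were named after their values were seen. SNAP91 (1 of many) and gpr85 are also among the 6 genes apart within 1 megabase at that level. Over all genes tested that were apart, 385 of 606 were higher under 5 CPM and 279 of 490 were lower above 20 CPM.

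With each library left out in turn, the share of genes within 1 megabase that passed an unadjusted p of 0.05 ranged from 17.1% to 26.8%, against 3.29% to 9.65% of all genes tested. With WT replicates 2 and 3 both left out, 5 of 41 genes within 1 megabase passed, or 12.2%, against 2.82% of all genes tested. A single WT library, replicate 4, was then left and was assumed to vary like the mutant libraries, so this value does not show how far the share depends on those replicates.

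The gene with the lowest unadjusted p was also the second nearest on the side of higher coordinates. pex26 encodes a peroxisomal membrane protein that anchors the import machinery for matrix proteins. Its lowest coordinate, 5835393 on the plus strand, lies 27.4 kilobases above that of foxm1. foxm1 runs up to 5831522 on the minus strand, so the genes point away from each other, with si:ch73-352p4.5 between them. pex26 had 13.0, 12.3 and 13.1 CPM in foxm1 mutant replicates 2, 3 and 4, against 7.82, 6.13 and 8.37 CPM in WT replicates 2, 3 and 4. The groups did not overlap, and the mutant libraries were within 1 CPM of each other (log2 fold change 0.78 ± 0.16 SE, edgeR adjusted p = 0.3615). DESeq2 gave an adjusted p of 0.02109 and the likelihood ratio test 0.01644, and over 19 alternatives the adjusted p ranged from 0.0164 to 1.00 and the log2 fold change from 0.61 to 0.88. In experiment 1, pex26 had 9.06 and 7.98 CPM in dusp6 mutant hearts without injury and at 3 dpa, and 9.21 and 6.59 CPM in WT hearts in the same states. The 4 libraries of experiment 1, scaled separately, thus lay below all 3 foxm1 mutant libraries.

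mapk12b, which encodes a p38-type MAP kinase, starts 0.284 megabases away on the side of lower coordinates. It had 0.658, 0.873 and 1.53 CPM in foxm1 mutant libraries, against 3.88, 3.68 and 2.23 CPM in WT libraries, from 12, 16 and 33 reads against 67, 63 and 41 reads. The groups did not overlap, with a log2 fold change of -1.65 ± 0.38 SE and an edgeR adjusted p of 0.496. DESeq2 gave an adjusted p of 0.02243 and the likelihood ratio test 0.01543, in a range of 0.0154 to 1.00 over 18 alternatives. Of its reads, 77.6% mapped uniquely, and its span overlaps BX324164.5 on the opposite strand. In experiment 1 the order differed: mapk12b had 0.160 and 0.243 CPM in dusp6 mutant hearts and 0.165 and 0.737 CPM in WT hearts, without injury and at 3 dpa. WT hearts of experiment 1 therefore lay below WT hearts of experiments 2 to 4, on separate scales, and below or within the range of the foxm1 mutants.

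SNAP91 (1 of many), named for the clathrin assembly protein of synaptic vesicles, had 1.76, 2.73 and 0.790 CPM in foxm1 mutant libraries, against 0.116, 0.350 and 0.163 CPM in WT libraries. These rest on 32, 50 and 17 reads in the mutants and 2, 6 and 3 reads in WT. The log2 fold change of 3.02 ± 0.61 SE was the largest of any flanking gene tested (edgeR adjusted p = 0.362). DESeq2 gave an adjusted p of 0.005633 and the likelihood ratio test 0.001122, in a range of 0.00112 to 1.00 over 17 alternatives. The gene passed the filter on low counts through the mutant libraries alone, where it was high, so these p-values are description only. Only 40.9% of its reads mapped uniquely, and with uniquely mapped reads alone it no longer passed the filter on low counts. In experiment 1 it had 0.463 and 1.09 CPM in dusp6 mutant hearts without injury and at 3 dpa (26 and 63 reads), and 0.132 and 0.481 CPM in WT hearts in the same states (8 and 32 reads). On these separate scales the dusp6 mutant heart at 3 dpa lay within the range of the foxm1 mutants, and the WT heart at 3 dpa lay above all 3 WT libraries of experiments 2 to 4.

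ccdc167, which encodes a coiled-coil protein, overlaps SNAP91 (1 of many) on the opposite strand. It had 13.2, 13.1 and 14.5 CPM in foxm1 mutant libraries, against 9.50, 10.4 and 9.84 CPM in WT libraries, without overlap (log2 fold change 0.46 ± 0.13 SE, edgeR adjusted p = 0.628). The excess lay in the introns. Intron reads numbered 117, 102 and 119 in foxm1 mutant libraries, against 44, 44 and 21 in WT libraries, and exon reads numbered 124, 138 and 194 in mutants, against 120, 134 and 160 in WT. With exon reads alone the log2 fold change was 0.0067 and the libraries overlapped, whereas with intron reads alone it was 1.44. The share of its reads that fell in exons was 51.5%, 57.5% and 62.0% in foxm1 mutant libraries, against 73.2%, 75.3% and 88.4% in WT libraries.

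**Figure D3:**
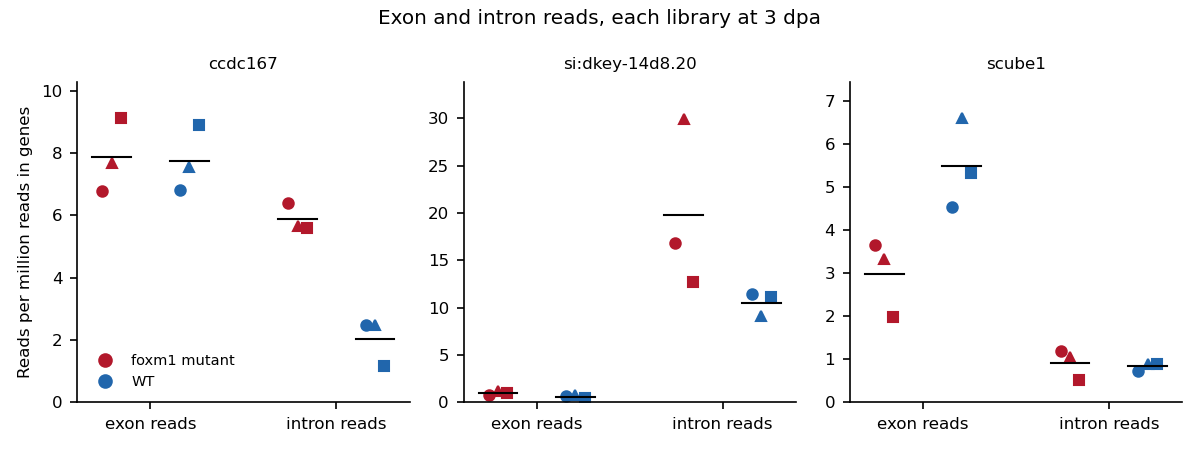
Reads in exons and in introns per 1000000 reads in genes, for 3 flanking genes in each library at 3 dpa, with foxm1 mutant in red, WT in blue and a line at the mean of 3 libraries (circle, triangle and square are replicates 2, 3 and 4). For ccdc167 the genotypes were apart in intron reads (102 to 119 reads in mutants and 21 to 44 in WT) and overlapped in exon reads.

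si:dkey-14d8.20 also drew its reads from introns, with only 5.09% in exons over a span of 102205 bases. It had 17.7, 30.5 and 13.6 CPM in foxm1 mutant libraries, against 12.3, 10.2 and 11.3 CPM in WT libraries, and replicate 3 of the mutants was far above the rest (log2 fold change 0.87 ± 0.28 SE, adjusted p = 0.684). scube1, which encodes a secreted EGF-domain protein, showed the opposite layout and was singled out after its values were seen. It had 4.88, 4.31 and 2.46 CPM in foxm1 mutants, against 5.39, 7.77 and 6.09 CPM in WT. The log2 fold change was -0.89 with exon reads and 0.044 with intron reads, so its difference was carried by exon reads. With exon reads over all flanking genes, 35 of 170 were apart (20.6%, against 8.90% of all genes) and 16 of 40 within 1 megabase. With intron reads alone the share apart over all flanking genes was near the background, 13 of 107 or 12.1% against 10.8%, and within 1 megabase 5 of 16 were apart. The median size of the log2 fold change with intron reads lay above the background. It was 0.299 over these 107 genes and 0.402 over the 16, against 0.216 over all genes tested.

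zgc:194209 had the lowest unadjusted p of the flanking genes that were lower in foxm1 mutants. It had 6.20, 7.69 and 7.48 CPM in foxm1 mutant libraries, against 11.9, 11.4 and 10.7 CPM in WT libraries, 1.28 megabases from foxm1 (log2 fold change -0.67 ± 0.15 SE, adjusted p = 0.483). Experiment 1 had 13.8 and 11.9 CPM in dusp6 mutant hearts and 10.6 and 11.2 CPM in WT hearts without injury and at 3 dpa. Its neighbour gnsa, which encodes a lysosomal sulfatase and starts 1.30 megabases away, had 62.8, 66.8 and 67.3 CPM in foxm1 mutants, against 85.8, 78.0 and 77.6 CPM in WT (log2 fold change -0.29 ± 0.10 SE, adjusted p = 0.770). Both were lower in every mutant library than in any WT library.

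Next to these lay CABZ01020835.1, 1.18 megabases from foxm1, with 2.14, 1.75 and 1.63 CPM in foxm1 mutants, against 1.04, 1.05 and 0.924 CPM in WT (log2 fold change 0.86 ± 0.27 SE, adjusted p = 0.672). In experiment 1 it had 3.97 and 3.03 CPM in dusp6 mutant hearts without injury and at 3 dpa, and 4.81 and 1.59 CPM in WT hearts in the same states. On separate scales, 3 of these 4 libraries thus lay above all foxm1 mutant libraries. strip2, which encodes a member of the STRIPAK phosphatase complex, had 2.96, 2.18 and 2.14 CPM in foxm1 mutants, against 0.927, 1.64 and 1.03 CPM in WT (log2 fold change 1.01 ± 0.31 SE, adjusted p = 0.672). Experiment 1 had 2.62 and 1.28 CPM of strip2 in dusp6 mutant hearts and 4.94 and 1.55 CPM in WT hearts, without injury and at 3 dpa. On these separate scales the uninjured WT heart lay above the foxm1 mutant range, the uninjured dusp6 mutant heart within it, and both hearts at 3 dpa below it. With all 10 libraries on a common scale, the uninjured dusp6 mutant heart, at 2.855 CPM, lay just above the highest foxm1 mutant library, at 2.83 CPM. Within experiments 2 to 4, both genes were higher in every foxm1 mutant library than in any WT library, whereas zgc:194209 and gnsa were lower.

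**Figure D4:**
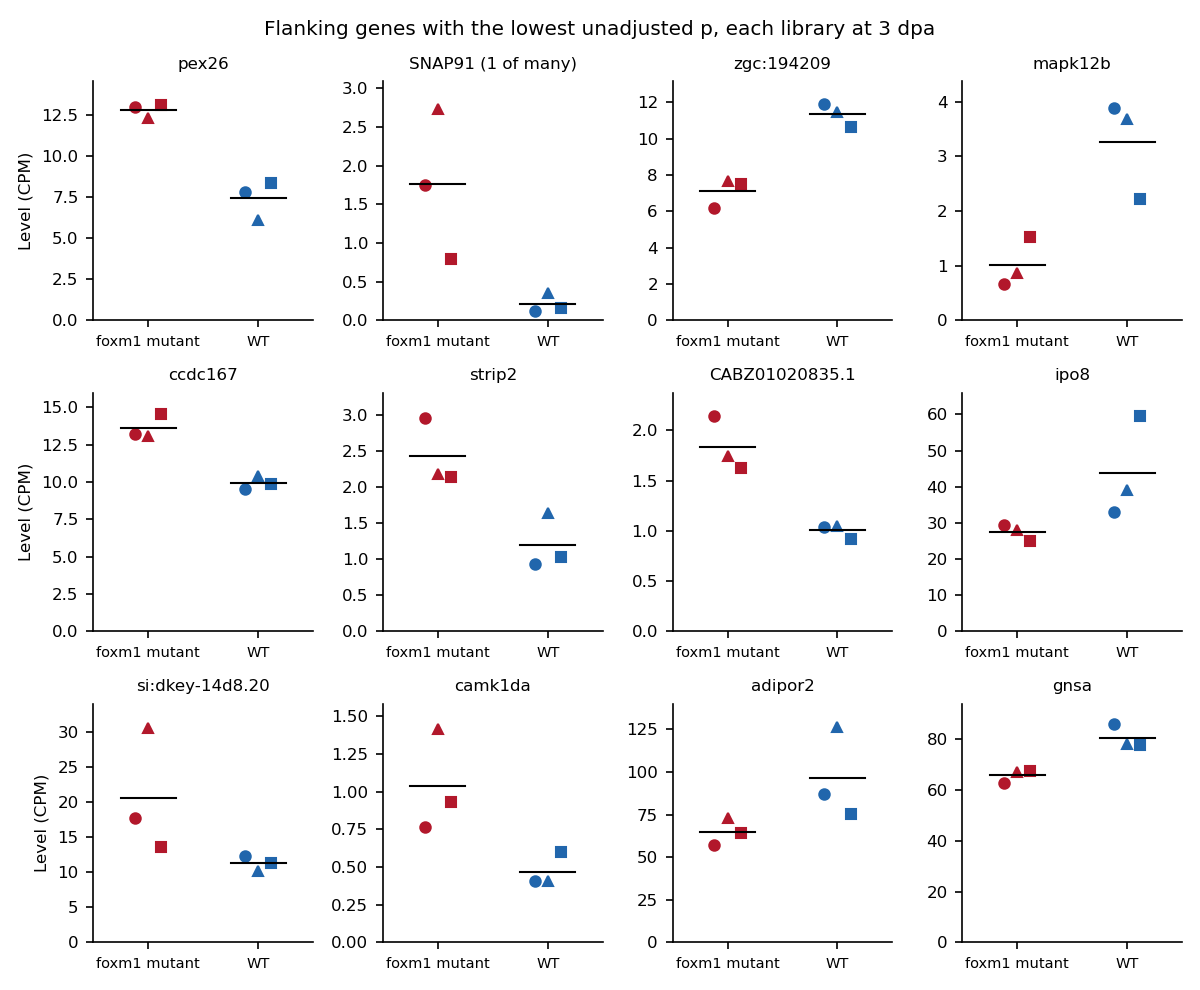
Levels in CPM of the 12 flanking genes with the lowest unadjusted p, in each foxm1 mutant and WT library at 3 dpa, with a line at the mean of 3 libraries (circle, triangle and square are replicates 2, 3 and 4). In all 12 the mutant and WT libraries do not overlap, as for pex26 with 12.3 to 13.1 CPM in mutants and 6.13 to 8.37 CPM in WT. The 12 were picked by their p in these same libraries, which favours genes without overlap, so this is description only. Of all genes tested, 9.23% were apart.

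On the side of higher coordinates, 3 more genes were among the 12 with the lowest p. camk1da, a calcium/calmodulin-dependent kinase gene 2.08 megabases away, had 0.768, 1.42 and 0.929 CPM in foxm1 mutants, against 0.406, 0.409 and 0.598 CPM in WT (log2 fold change 1.12 ± 0.38 SE, adjusted p = 0.753). camk1da would not have passed the filter on low counts on its WT libraries alone, so its place among the lowest p is description only. adipor2, which encodes an adiponectin receptor, had 57.3, 72.9 and 64.2 CPM in foxm1 mutants, against 87.3, 126 and 75.3 CPM in WT (log2 fold change -0.57 ± 0.20 SE, adjusted p = 0.764). The mutant replicate nearest to WT came within 3 CPM of the lowest WT library. ipo8, a nuclear import receptor gene, had 29.3, 28.0 and 24.9 CPM in foxm1 mutants, against 33.1, 39.1 and 59.4 CPM in WT (log2 fold change -0.68 ± 0.21 SE, adjusted p = 0.672), and WT replicate 4 alone was far above the other WT libraries. In experiment 1, ipo8 had 57.8 and 71.6 CPM in dusp6 mutant hearts, against 32.2 and 22.7 CPM in WT hearts, without injury and at 3 dpa. It was thus variable between lines and between WT libraries.

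Of the 8 tested genes nearest to foxm1, 4 on each side, the genotypes were apart for 4, where they were apart for 9.23% of all genes tested. A share of 8 genes is a rough one. pgm3, whose enzyme makes a precursor of UDP-N-acetylglucosamine, had 4.33, 5.07 and 8.64 CPM in foxm1 mutants, against 3.30, 3.45 and 4.18 CPM in WT (log2 fold change 0.73 ± 0.29 SE, adjusted p = 0.826). ccnc encodes cyclin C of the Mediator kinase module and had 24.9, 24.5 and 26.9 CPM in foxm1 mutants, against 29.0, 29.4 and 32.2 CPM in WT (log2 fold change -0.25 ± 0.11 SE, adjusted p = 0.904). These neighbours, both on the minus strand like foxm1, lay on opposite sides of WT.

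mrps18a, a mitochondrial ribosomal protein gene, had 19.9, 18.4 and 21.6 CPM in foxm1 mutants, against 17.0, 14.8 and 18 CPM in WT (log2 fold change 0.26 ± 0.13 SE, adjusted p = 0.944). The remaining 4 of the 8 overlapped between genotypes. tmem63a, an ion channel gene, had a log2 fold change of 0.18 ± 0.12 SE, si:ch73-352p4.5 of -0.63 ± 0.29 SE, and slc5a8, a monocarboxylate transporter gene, of -0.49 ± 0.28 SE. lyrm5a, which overlaps slc5a8 on the opposite strand, had 28.4, 21.8 and 32.8 CPM in foxm1 mutants, against 28.6, 25.8 and 28.5 CPM in WT.

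The flanking genes most abundant per transcript length were tnni4a, ndufa5, nap1l1, hsp90b1 and mtpn, and they differed little. tnni4a, a troponin I gene, had 364, 310 and 275 TPM in foxm1 mutants, against 322, 285 and 363 TPM in WT. ndufa5, a subunit gene of respiratory complex I, lies 0.878 megabases away and had 259, 259 and 244 TPM in foxm1 mutants, against 276, 261 and 281 TPM in WT. It was the only 1 of the 5 whose libraries were apart, by a log2 fold change of -0.13 ± 0.10 SE. The log2 fold changes were -0.22 ± 0.14 SE for nap1l1, a histone chaperone gene, 0.12 ± 0.25 SE for hsp90b1, a chaperone gene of the endoplasmic reticulum, and -0.018 ± 0.11 SE for mtpn, the myotrophin gene.

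Other genes that were apart, named after their values were seen, included some of known metabolic or signalling roles. phyh, which encodes an enzyme of peroxisomal alpha-oxidation 2.02 megabases away, had 112, 86.7 and 86.3 CPM in foxm1 mutants, against 123, 123 and 117 CPM in WT. The neighbours pik3cg, a PI3-kinase catalytic subunit gene of leukocytes, and nampta, a gene of NAD salvage, were both lower. pik3cg had 29.1, 36.9 and 34.5 CPM in foxm1 mutants, against 39.5, 40.1 and 47.9 CPM in WT, and nampta had 36.5, 38.0 and 30.2 CPM in foxm1 mutants, against 45.2, 51.2 and 39.4 CPM in WT. Their adjusted p-values by edgeR were 0.788, 0.849 and 0.810.

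Some genes in the outer part of the window varied between libraries of 1 genotype more than between genotypes, and these were also named after their values were seen. slc38a4, an amino acid transporter gene 4.29 megabases away, had 117, 90.8 and 115 CPM in foxm1 mutants, against 268, 380 and 67.3 CPM in WT replicates 2, 3 and 4. slc38a2, of the same transporter family, had 211, 156 and 156 CPM in foxm1 mutants, against 331, 403 and 136 CPM in WT. In both genes WT replicates 2 and 3, the libraries with high fkbp5, were high and WT replicate 4 was below the mutants. Without WT replicate 4, slc38a4 alone of the flanking genes was called (log2 fold change -1.59, edgeR adjusted p = 0.0182), against 0.894 with all 6 libraries. In that fit 9.65% of all genes tested had an unadjusted p of at most 0.05, against 5.64% with all 6 libraries. The call of slc38a4 left out the WT library that lay below the mutants and is no support for a difference between genotypes.

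trim35-14, a member of the TRIM family of RING-finger genes 4.35 megabases away, was not tested in the 6 libraries because nearly all of its reads lay in a pair of libraries. It had 61, 61 and 1 reads in foxm1 mutant replicates 2, 3 and 4, against 3, 2 and 0 reads in WT replicates 2, 3 and 4. Mutant replicates 2 and 3 were thus high and mutant replicate 4 was at the WT level. Without mutant replicate 4 it passed the filter on low counts, through mutant replicates 2 and 3 alone. It was then the only flanking gene called (log2 fold change 5.04, edgeR adjusted p = 0.0426). That call left out the mutant library at the WT level and is no support for a difference between genotypes. In experiment 1 trim35-14 had 35 and 76 reads in dusp6 mutant hearts, against 6 and 2 reads in WT hearts, without injury and at 3 dpa. Its level thus differed between libraries of the same mutant group.

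The dusp6 mutant line gave a second mutant to set against WT, and its mutated gene lies on chromosome 25. Over experiment 1, with injury state as a second term, 198 flanking genes were tested among 20408 and edgeR's quasi-likelihood test called 0, as it called 0% of all genes. Unadjusted, 20 flanking genes (10.1%) had a p of at most 0.05, where 7.88% of all genes did, and within 1 megabase of foxm1 they were 2 of 45, or 4.44%. The median size of the log2 fold change in dusp6 mutants was 0.324 over these 45 genes, 0.293 over the 198 flanking genes and 0.303 over all genes tested. DESeq2 called 3 flanking genes and the likelihood ratio test 4, where they called 1.44% and 1.86% of all genes. Both called si:ch211-170p16.1_2, ipo8 and adm2a, and the likelihood ratio test also called trim35-14. With 1 library per genotype and state, only 1 residual degree of freedom was left.

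adm2a, which encodes a peptide hormone of the adrenomedullin family, had 2.26 and 4.44 CPM in dusp6 mutant hearts without injury and at 3 dpa, against 7.56 and 15 CPM in WT hearts (log2 fold change -1.75 ± 0.26 SE, edgeR adjusted p = 0.353). si:dkey-97m3.1 had 2.19 and 2.48 CPM in dusp6 mutants, against 8.66 and 4.86 CPM in WT (log2 fold change -1.48 ± 0.39 SE). On the other side, si:ch211-170p16.1_2 had 1.14 and 2.70 CPM in dusp6 mutants, against 0.215 and 0.301 CPM in WT (log2 fold change 2.80 ± 0.51 SE, 6.96% unique reads). sim1b, a transcription factor gene too low to be tested in the foxm1 comparison, had 1.48 and 2.12 CPM in dusp6 mutants, against 0.496 and 0.948 CPM in WT (log2 fold change 1.36 ± 0.43 SE). All 4 differed in the same direction in both states, and none lay within 1 megabase of foxm1.

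With injury, the shares of flanking genes past each threshold lay near those of all genes over the whole window, while the fold changes were larger within 1 megabase of foxm1, a difference given with no test. The median size of the log2 fold change at 3 dpa was 0.684 over the 45 genes tested within 1 megabase, 0.499 over the 198 flanking genes and 0.448 over all genes tested. The signed medians were 0.26, 0.018 and -0.0046. At 3 dpa against uninjured hearts, with both genotypes of experiment 1 joined, edgeR's quasi-likelihood test called 0 flanking genes at an adjusted p of at most 0.01, as it called 0% of all genes, and the lowest adjusted p was 0.0773. Unadjusted, 50 of 198 flanking genes (25.3%) had a p of at most 0.05, where 20.9% of all genes did. DESeq2 called 12 flanking genes, or 6.06%, where it called 7.47% of all genes, and the likelihood ratio test called 11 where it called 6.25%. The 2 libraries at 3 dpa were apart from the 2 uninjured libraries for 117 flanking genes, or 59.1%, where 55.6% of all genes were apart.

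Among the flanking genes with the highest log2 fold changes were cd9b, a tetraspanin gene, si:ch1073-67j19.2, and mcm10, a gene of DNA replication initiation. cd9b had 11.5 and 51.2 CPM in dusp6 mutant and WT hearts at 3 dpa, against 1.01 and 0.810 CPM in dusp6 mutant and WT hearts without injury (log2 fold change 5.10 ± 0.83 SE, adjusted p = 8.779e-12 by DESeq2 and 0.0786 by edgeR's quasi-likelihood test). si:ch1073-67j19.2 had 2.5 and 6.85 CPM at 3 dpa, against 0.303 and 0.265 CPM without injury, in dusp6 mutant and WT hearts. mcm10 had 1.07 and 3.2 CPM at 3 dpa, against 0.107 and 0.182 CPM without injury, in dusp6 mutant and WT hearts. In all of them the injured hearts of both genotypes lay above the uninjured hearts, and the WT heart was the higher at 3 dpa.

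The lowest log2 fold changes with injury belonged to tymp, a thymidine phosphorylase gene, zgc:55888, and ppp1r3aa, which encodes a glycogen-targeting subunit of protein phosphatase. They were -1.88 ± 0.75 SE, -1.65 ± 0.41 SE and -1.53 ± 0.81 SE, and DESeq2 called none of them. Of the reads of tymp 9.52% lay in exons, and of the reads of ppp1r3aa, which overlaps foxp2 on the opposite strand, 4.56% mapped uniquely. In foxm1 mutant against WT hearts at 3 dpa, the libraries of all 6 genes named for injury overlapped between genotypes.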

How the data were processed

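RNA was measured in 10 libraries of adult zebrafish ventricles. The authors mapped the reads to GRCz11 in CLC Genomics Workbench 20 and deposited, per library, read counts per gene (all, uniquely mapped, exon and intron reads) and TPM, transcripts per 1000000, which the authors scaled for gene length and depth. Tables of the authors' own comparisons (fold changes and p-values) were left aside, as was the group at 7 dpa. The strand setting of the counting is not given in the sources used here, so reads of a gene and an antisense partner cannot be told apart.

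The deposited counts of all reads per gene passed through filterByExpr (minimum count 10, minimum total 15), were scaled by TMM and entered the quasi-likelihood test of edgeR 4.0.16 in R 4.3.3, with Benjamini-Hochberg adjustment over all genes tested. Thresholds were the study's: 0.05 for the adjusted p (0.01 for injury) and 0.59 for the size of the log2 fold change. The SE is the size of the log2 fold change over the square root of F. DESeq2 1.42.0, edgeR's likelihood ratio test, RLE scaling, other filters and read kinds, limma-trend (limma 3.58.1) on log2(TPM + 1) and log2(TPM + 0.1), a narrower window and the omission of libraries were alternatives. The tests were tried on simulated counts.

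The flanking genes, marker lists and tests were chosen with earlier results of these data known. Genes were named by rule: the 12 lowest unadjusted p, the 4 nearest on each side, the 5 with the highest mean TPM, and the largest changes with injury and in dusp6 mutants at a mean of at least 1 CPM. Others are said to have been named after their values were seen. No pair of libraries of a genotype agreed within sampling noise. No sequence is printed because no genome of the build was used here.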

Additional observations from a re-analysis of the deposited data

How the results depend on the processing

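edgeR's quasi-likelihood test called 0 flanking genes in foxm1 mutant against WT hearts under every filter, scaling, threshold and read kind tried. It also called 0 with all 10 libraries in one fit, as did limma-trend. In the main fit it called only 0.0114% of all genes, and 0% with all 10 libraries, so these counts of 0 say little about the flanking genes. The likelihood ratio test called 3 and DESeq2 called 3, or 1.68% of those tested, where they called 0.698% and 0.664% of all genes. Leaving out each library in turn gave 0 to 1 call, which was trim35-14 without foxm1 mutant replicate 4 and slc38a4 without WT replicate 4. The background differed in these fits. Of all genes tested, 6.84% had an unadjusted p of at most 0.05 without that mutant library and 9.65% without that WT library, against 5.64% with all 6. The labels give same-numbered libraries the same experiment number, but neither the labels nor the paper say what an experiment shared. Deviations of same-numbered libraries correlated at 0.12, -0.032 and 0.135, and those of differently numbered libraries at -0.165 to 0.11. The numbers were not taken to pair the libraries in the main fit. With the replicate number as a block, 0 flanking genes were called, and the lowest adjusted p was 0.2696. The count of flanking genes apart was 13 of 107 with intron reads (12.1%, against 10.8% of all genes). It stayed between 23 and 37 under the other filters, scalings, units and windows. These differ in the number of genes tested, so a lower count need not be a lower share. Within 3 megabases of foxm1, where fewer genes were tested, 25 of 88 were apart (28.4%, against 9.23% of all genes). Over the whole window the count was 35 of 179 with RLE scaling (9.22% of all genes) and 37 of 220 without a filter (8.94% of all genes). With uniquely mapped reads it was 32 of 173, against 9.24% of all genes. The count ranged from 48 to 69 with 1 library left out, or 26.4% to 37.7% of those tested against 14.4% to 27.2% of all genes. It was 104 with WT replicates 2 and 3 left out together, or 56.5% against 43.5% of all genes. Fewer libraries are apart more often by construction. Against WT, dusp6 mutants had 4 calls by the likelihood ratio test and 3 by DESeq2. For injury the likelihood ratio test called 11, DESeq2 called 12, all 10 libraries in one fit called 14 (7.41%, against 9.25% of all genes), and single libraries left out gave 0 to 1 call, which was cd9b without the dusp6 mutant library at 3 dpa. Leaving out a library of the dusp6 comparison left no residual degrees of freedom and was not run.

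Values near 0 changed sign under some alternatives, and the cause was not tested. With intron reads the log2 fold changes in foxm1 mutants were 0.23 for tnni4a, 0.070 for nap1l1, -0.075 for hsp90b1, -0.37 for zgc:55888 and -0.27 for si:dkey-97m3.1. With the replicate block lyrm5a had -0.016 and zgc:55888 -0.028. Without a filter lyrm5a had -0.000758, and without haemoglobin and mitochondrial genes -0.00173. Without WT replicates 2 and 3 lyrm5a had -0.053, hsp90b1 -0.19 and zgc:55888 -0.37. mtpn had 0.00259 on log2(TPM + 1) and 0.00258 on log2(TPM + 0.1). With 1 library left out, the log2 fold changes ranged from -0.13 to 0.15 for lyrm5a, from -0.15 to 0.047 for tnni4a, from -0.15 to 0.33 for hsp90b1, from -0.082 to 0.055 for mtpn, from -0.51 to 0.34 for zgc:55888 and from -0.12 to 0.17 for si:dkey-97m3.1.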
